A study of Mus musculus with 31 samples.

Results

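Burst tiles are stretches of 100 bp of the mouse genome that were almost unmethylated in oocytes of primordial follicles and still mostly unmethylated in the Type5a oocytes of secondary follicles, but were methylated in the Type5b oocytes of the same follicle class. They were chosen by their measured levels: under 20% in Type1 and Type2, under 40% in Type5a, at least 70% in Type5b and over 70% in Type7. The rule also asked for fewer than 40 CpG sites, counted over all libraries, within 500 bp of the tile middle, and for at least 3 sites of at least 5 reads in at least 2 libraries of each of those 5 stages. The level of a tile in a library is the percentage of its reads that were methylated, summed over its sites of at least 5 reads. A read that covers several sites is counted at each of them, here and in every read count of a tile. The level of a stage is the mean of its libraries. The rule found 1943 burst tiles among 163350 tiles measured in any library, or among 49374 measured in at least 2 libraries of each of the 5 stages. Differences among the 5 stages of the rule are therefore a description, while Type3a, Type3b, Type4 and Type6 played no part in the choice. Each of these other stages still lies between stages whose levels the rule bounds.

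The series holds 31 libraries of reduced representation bisulfite sequencing, a method that cuts DNA at CCGG with MspI and reads CpG methylation in the fragments. All oocytes were B6D2F1 (C57BL/6 x DBA/2), with no treatment or altered genotype named. Type1 and Type2 were oocytes of primordial follicles, Type3a and Type3b of primary, Type4, Type5a and Type5b of secondary, and Type6 and Type7 of antral follicles. Type4 and Type5a had 5 libraries each and the other 7 stages 3 each. The labels give no age, no number of oocytes or animals per library, and nothing that sets Type5a apart from Type5b beyond the name. A mix of methylated and unmethylated oocytes and partial methylation in each oocyte cannot be told apart in a library of several oocytes. One sample tag names stages of the embryo, against the titles, and was left aside.

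Mouse oocytes enter follicles with little DNA methylation and regain it while they grow. The new methylation is laid down by the enzyme DNMT3A with its partner DNMT3L, mostly over transcribed regions that carry the histone mark H3K36me3, and CpG islands that hold H3K4me3 are often spared. DNMT1 copies methylation onto a new strand after DNA replication, but a growing oocyte is arrested in meiosis and does not replicate its DNA.

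The 5 burst tiles with the largest rise from Type4 to Type6 are shown first, to set their sites beside their values below. They were picked among tiles measured in all 31 libraries that were called higher in Type6 and whose Type4 and Type6 libraries did not overlap. The letters come from the 5-base contexts that the deposited files give for each CpG (plus strand, mm9), n stands for a base that no context gives, and capitals mark the CG of each listed site.

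chr7:139651701-139651800: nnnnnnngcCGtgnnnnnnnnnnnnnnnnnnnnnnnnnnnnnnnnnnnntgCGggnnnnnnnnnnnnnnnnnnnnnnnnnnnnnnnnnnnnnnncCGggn
chr8:117045801-117045900: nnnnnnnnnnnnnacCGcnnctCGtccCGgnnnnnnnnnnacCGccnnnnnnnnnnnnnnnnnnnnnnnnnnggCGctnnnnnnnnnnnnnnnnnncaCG
chr14:105681201-105681300: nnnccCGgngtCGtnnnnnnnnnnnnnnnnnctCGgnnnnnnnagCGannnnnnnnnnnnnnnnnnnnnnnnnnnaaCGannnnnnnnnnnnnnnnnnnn
chr17:71184001-71184100: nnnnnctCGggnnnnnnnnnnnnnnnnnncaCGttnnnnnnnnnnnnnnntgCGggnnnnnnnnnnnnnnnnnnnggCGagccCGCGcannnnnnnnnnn
chr11:22872001-22872100: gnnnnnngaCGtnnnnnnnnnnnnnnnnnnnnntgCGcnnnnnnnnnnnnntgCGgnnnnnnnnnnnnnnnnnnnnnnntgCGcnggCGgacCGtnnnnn

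Burst tiles were spread over the genome in small numbers per place. Chromosome 5 held 194, chromosome 8 held 184, chromosome 11 held 142 and chromosome 7 held 141, while chromosome X held 23. Of the autosomal tiles that were low in Type1 and Type2, high in Type7 and CpG-poor, between 35% (chromosome 3) and 48.0% (chromosome 14) were burst tiles, against 26.7% of the 86 such tiles on X. The 1943 tiles contained 8908 CpG sites, and the median number of sites within 500 bp of a tile middle was 10, against 24 over the 49374 tiles. The rule limits this density, so the lower value is no finding. The share of sites inside a CCGG was 15.1%, against 12.2% over the 49374 tiles and 14.1 to 15.2% in the 3 groups of other tiles that were low in Type1 and Type2, high in Type7 and CpG-poor. Genes were not placed, because the annotation used here is of another genome build.

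Depth differed between libraries. Total reads over CpG sites ran from 7949652 to 60361665 per library, and a library measured 1135 to 1929 of the burst tiles. The median burst tile had 57 to 235 reads in a library, summed over its sites, so fewer separate reads may lie behind them. Only 153 burst tiles were measured in all 31 libraries and 851 in at least 28, so libraries are compared over partly different tiles. In 9 libraries CpG-dense tiles on X (63 tiles) were more methylated than CpG-dense autosomal tiles (2902 tiles). This difference is called the X measure below. Those 9 were 3 libraries of Type4 (replicates 1, 2 and 5), 2 of Type6 (replicates 1 and 2), 2 of Type5a (replicates 5 and 7), the first of Type3a and the third of Type1.

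In primary follicles the burst tiles were mostly unmethylated. Their mean level was 23.7, 3.24 and 5.74% in Type3a replicates 1, 2 and 4, a stage mean of 10.9% ± 11.2 (SD, n = 3). It was 8.65, 15.3 and 17% in the 3 Type3b libraries, a stage mean of 13.7% ± 4.42 (n = 3). The first Type3a library stood above both others of its stage and above every Type3b library, and its X measure was 1.86. Of the 1636 burst tiles measured in at least 2 Type3a libraries, 904 were under 10% and 36 at 40% or more. In Type3b 865 of 1679 were under 10% and 85 at 40% or more.

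Type4 oocytes, the first class of secondary follicles, were uneven. The mean level of the burst tiles was 29.8, 40.7, 9.32, 28.7 and 8.16% in replicates 1, 2, 4, 5 and 6, a stage mean of 23.3% ± 14.1 (n = 5). The 3 higher libraries were those with an X measure of 6.75, 10.6 and 9.94 points, and the 2 lower ones had −3.37 and −0.66. Without the 3 libraries with an X measure above 0 the same tiles had a mean of 8.74% ± 0.815 (n = 2), below the Type3b mean. The part of the X measure in this difference was not tested. By tile, the median Type4 level was 22.8%, with 347 of 1924 tiles under 10%, 239 at 40% or more and 10 at 70% or more.

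Type6, the first class of antral follicles, was the other side of the change. The mean level was 91.3, 89.1 and 93.1% in its 3 libraries, a stage mean of 91.2% ± 2.01 (n = 3), and the lowest Type6 library lay far above the highest Type4 library. The median tile was at 95.2%, and 1701 of 1833 tiles measured in at least 2 Type6 libraries were at 70% or more. Of the same 1833 tiles 1295 were at 90% or more and 21 under 50%. Over the 39619 tiles that every stage measured in 2 or more libraries, which include tiles of any level in Type7, the mean was 25.9% ± 6.37 in Type4 and 36.5% ± 1.87 in Type6.

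The stages that chose the tiles gave the following levels, which the rule fixes in part. Type1 libraries had 2.32, 2.54 and 11.7%, and Type2 libraries 1.58, 1.57 and 4.93%. Type5a libraries had 32.6, 10.1, 20.8, 14.8 and 33.3% in replicates 1, 4, 5, 6 and 7, and Type5b libraries 89.9, 83 and 85.3%. The X measure of these Type5a replicates was −3.86, −3.66, 0.978, −3.73 and 3.23 points. Replicates 1 and 7 thus had similar levels with X measures on either side of 0. Type7 libraries lay at 97.5, 97.6 and 97.8%. The plot of the burst tiles by library shows all of them.

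**Figure D1:**
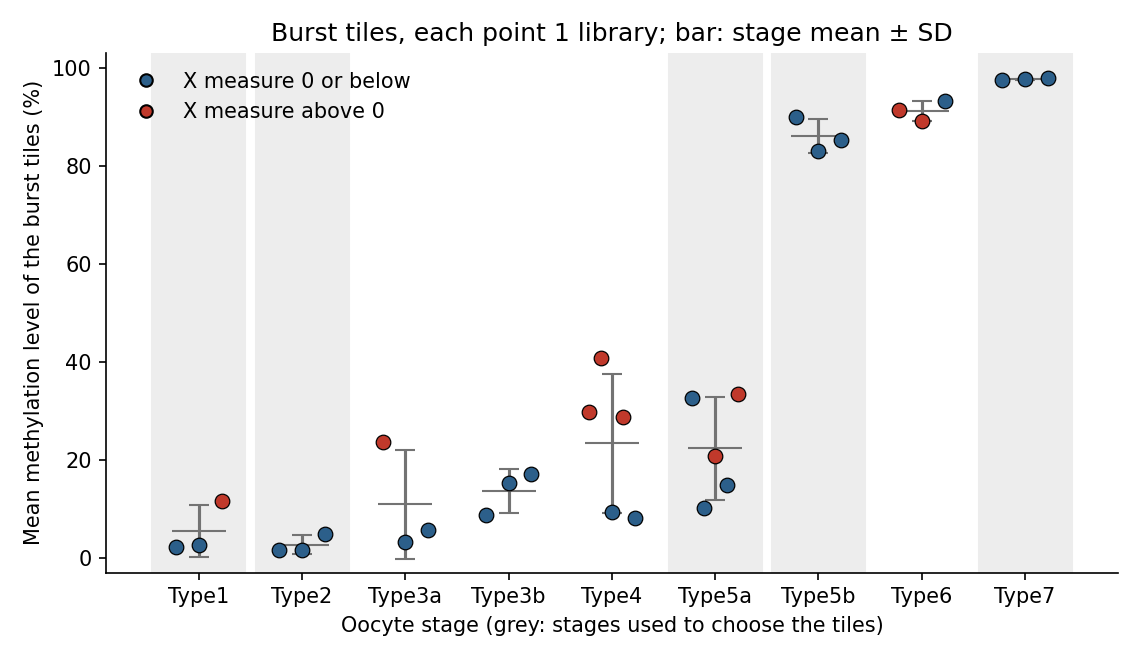
Mean methylation level of the burst tiles (y axis, percent) in each of the 31 libraries (points) by oocyte stage (x axis), with the stage mean ± SD as a bar; grey bands mark the 5 stages used to choose the tiles and red points the 9 libraries with an X measure above 0. Type4 libraries spread from 8.16 to 40.7%, and Type6 libraries sit between 89.1 and 93.1%.

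To read Type5b and Type5a without the choice, the tiles were chosen again without a library and read in that library. Read this way, the Type5b libraries had 85.2, 74.1 and 77.3%, a mean of 78.9% ± 5.76 (n = 3), on 1074, 1272 and 1221 tiles measured there of 1263, 1643 and 1429 chosen. Of the tiles measured in the held-out library 83.1, 65.9 and 70.8% reached 70%, and 5.21, 11.9 and 10.6% were under 40%. The Type5a libraries had 37.8, 11.9, 25, 19.3 and 36.7% in replicates 1, 4, 5, 6 and 7, a mean of 26.1% ± 11.2 (n = 5). Every held-out Type5b library therefore stood above every held-out Type5a library; the means with every library in the choice were 86.1% ± 3.51 and 22.3% ± 10.4.

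The rise from Type4 to Type6, 2 stages the choice did not use, was tested on every tile. The rule held Type1, Type2 and Type5a low and Type5b and Type7 high, so the choice favoured this rise. All tiles tested include tiles that stay low in Type7. The other groups of tiles with the same start and end, given below, were called higher in 59.0 to 79.0% of those tested. Of the 1943 burst tiles 1817 had 2 or more libraries in both stages, and 1568 of them (86.3%) were called higher in Type6. A call required an adjusted p under 0.05 together with stage levels 20 or more points apart. Over all 74275 tiles tested, 11.8% were higher and 0.124% lower, and no burst tile was lower. The test was a quasi-binomial model over all 31 libraries with Benjamini-Hochberg adjustment over the 74275 tiles. The median difference of the burst tiles was 68.3 points, against 2.50 points over all tiles tested, and 1816 of 1817 differences were above 0. In 1567 burst tiles (86.2%) the lowest Type6 library lay above the highest Type4 library, against 19.4% of all tiles tested. The 249 burst tiles that were not called had a median difference of 47.6 points and a median of 878 reads in both stages together, against 70.9 points and 1251.5 reads for those called. With limma on log ratios 1525 burst tiles were called (83.9% of those tested), beside 11.76% of all tiles. With edgeR 117 were called (6.44% of those tested), beside 0.789% of all tiles. In a fit on the 2 stages alone 1026 were called (56.5% of those tested), beside 6.97% of all tiles. Without the 9 libraries with an X measure above 0, which left 1 Type6 and 2 Type4 libraries, 1085 tiles met the rule, and 604 of 716 tested were called, against 13.65% of all 39521 tiles tested.

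**Figure D2:**
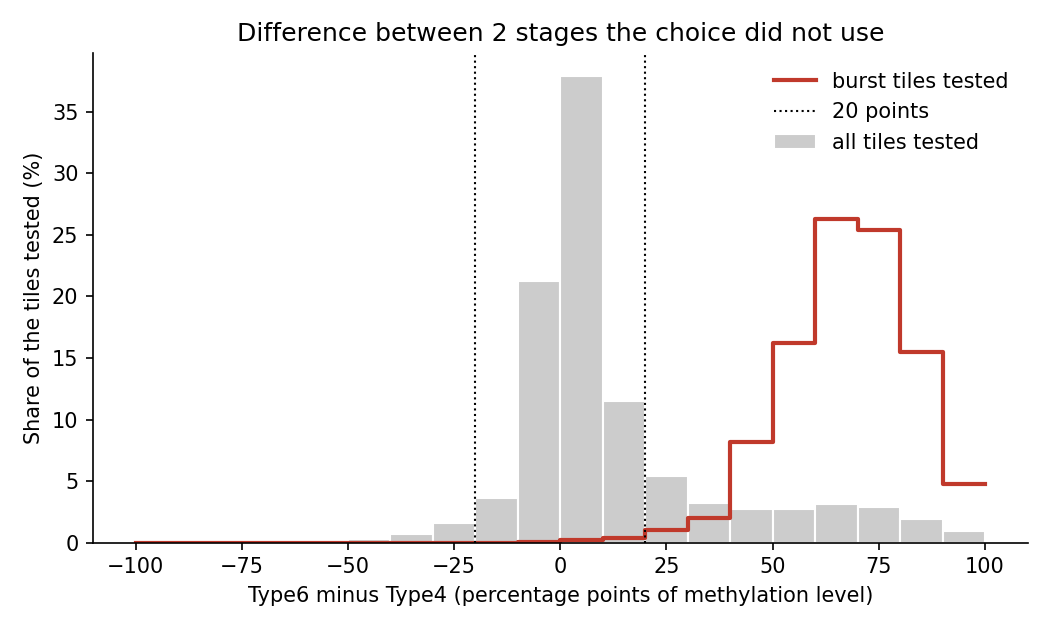
Difference in methylation level between Type6 and Type4 (x axis, percentage points) against the share of tiles (y axis, percent), for the 1817 burst tiles tested (red line) and all 74275 tiles tested (grey bars), with dotted lines at 20 points to either side. The burst tiles are centred on a median of 68.3 points and all tiles on 2.50 points.

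Earlier steps gave no call. Between Type3b and Type4, 0 of 1669 burst tiles tested were called higher and 0 lower by the quasi-binomial model, as were 0% of all 63468 tiles in either direction. The median difference was 9.67 points, 1270 of the 1669 were above 0, and 293 had an unadjusted p under 0.05, against 4177 of the 63468. Both limma and edgeR called 0 burst tiles there. Between Type3a and Type3b, 0 of 1472 burst tiles were called in either direction, as were 0% of all 51559 tiles, with a median difference of 0.61 points. There 98 burst tiles had an unadjusted p under 0.05, against 1734 of the 51559, and limma and edgeR called 0. A count of 0 at these group sizes does not show that levels were equal.

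Single tiles showed how abrupt the change could be. Those printed first were picked for the largest called rises without overlap of Type4 and Type6 libraries. Their large differences and small adjusted p-values follow in part from that pick. The tile at chr17:71184001-71184100 was at 0% in all Type1, Type2 and Type3a libraries, and its Type4 libraries had 0, 1.32, 0, 0 and 0% in replicates 1, 2, 4, 5 and 6. In Type5a the tile had 0.688% ± 0.769 (n = 5). In Type5b it had 100, 32.3 and 86.7%, and in Type6 77.3, 93.8 and 94.3%. Type6 lay 88.2 points above Type4 (adjusted p 1.74e-05, from 981 reads in Type4 and 1316 in Type6). Each of its 6 sites was at 54.1% or more in Type5b and at 84.9% or more in Type6. The second Type5b library was the lowest of its stage.

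At chr8:117045801-117045900, Type4 libraries had 0, 6.16, 16.3, 22.4 and 0% and Type5a libraries 18.2, 0, 26.6, 0 and 44.0%. Type5b libraries had 94.3, 100 and 100%, and all 3 Type6 and all 3 Type7 libraries were at 100%. The Type6 value rests on 270 reads over 3 of its 6 sites, the other 3 being measured in 1 library or none (difference 91.0 points, adjusted p 3.31e-05).

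The tile at chr7:139651701-139651800 was at 100% in every Type6 and Type7 library, while its Type5b libraries read 100, 81.2 and 35%. Its Type4 libraries had 21.1, 13.1, 0, 3.41 and 0% (difference 92.5 points, adjusted p 0.000183). Type5a replicate 7 was at 60.1% there, above the third Type5b library, so these 2 stages overlapped in this tile.

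At chr14:105681201-105681300 the Type3b libraries already held 17, 25.3 and 46.7%, but Type4 had 11.5, 24.5, 0, 15.6 and 0%. Type5b had 100, 77.5 and 56.3% and Type6 97.5, 100 and 100% (difference 88.8 points, adjusted p 0.000127). The tile at chr11:22872001-22872100 was similar, with 3.78, 50.7 and 47.2% in Type3b and 11% ± 14.3 (n = 5) in Type4. It had 100, 72.9 and 98.4% in Type5b and 95.5, 99.6 and 100% in Type6 (difference 87.4 points, adjusted p 6.22e-05). The tiles at chr14:105681201-105681300 and chr11:22872001-22872100 thus both had libraries of primary follicles above the mean of Type4. By edgeR the tile at chr11:22872001-22872100 (adjusted p 0.0734) and the one at chr8:117045801-117045900 (0.0505) were not called. Those at chr7:139651701-139651800 (0.0424), chr14:105681201-105681300 (0.0472) and chr17:71184001-71184100 (0.0342) were called by edgeR.

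Among tiles in at least 28 libraries, the 3 with the highest Type4 level were picked. The highest Type4 level was at chr2:91785401-91785500, with 80.8, 80, 87.3 and 39.7% in the 4 libraries that measured it (71.9% ± 21.8). Its Type1 libraries had 0, 44.4 and 14% and its Type3b libraries 0, 0 and 40%. The same tile had 10.7% ± 17.9 (n = 5) in Type5a and 80.7% ± 13.7 (n = 3) in Type6, so its Type4 and Type6 libraries overlapped (difference 8.82 points, adjusted p 0.785). At chr19:45100501-45100600 Type4 libraries read 43.1, 100, 93.1 and 51.3% and Type5a libraries 29.1, 0, 4.55, 0 and 45.4%. Before Type4, this tile had 68.6, 7.69 and 0% in Type3a and 0.922, 21.8 and 96.6% in Type3b. At chr12:112499801-112499900 the Type4 libraries had 57.9, 100, 34.4, 26.9 and 71.9%, from 687 reads, and Type5a had 20.6% ± 23.0 (n = 5). In all 3 of these tiles Type4 stood above Type5a in the mean. They were picked as the 3 highest in Type4, and the rule holds Type5a under 40%. The difference therefore follows from the choice and was not tested. The chromosome 12 tile was not called between Type4 and Type6 (adjusted p 0.0701), but was without Type4 replicate 2 (0.0168) and with unweighted reads (0.0124). It was also not called with limma (0.431), with edgeR (0.663) or in the fit on the 2 stages (0.176).

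The burst tiles with the lowest Type6 levels, among those in at least 28 libraries, were picked next. They are printed in the same way, to set their sites beside those of the tiles above. Each was lower in Type6 than in the earlier Type5b. The rule holds Type5b at 70% or more and Type7 over 70%. The choice therefore favours a fall from Type5b to Type6 and a return in Type7, and neither was tested.

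chr19:8845701-8845800: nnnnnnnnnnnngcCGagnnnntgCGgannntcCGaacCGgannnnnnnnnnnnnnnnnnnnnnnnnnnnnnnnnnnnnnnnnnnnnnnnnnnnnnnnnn
chr5:122581901-122582000: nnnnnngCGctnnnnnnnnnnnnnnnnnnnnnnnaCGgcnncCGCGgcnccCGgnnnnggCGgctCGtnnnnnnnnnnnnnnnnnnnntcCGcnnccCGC
chr7:30124001-30124100: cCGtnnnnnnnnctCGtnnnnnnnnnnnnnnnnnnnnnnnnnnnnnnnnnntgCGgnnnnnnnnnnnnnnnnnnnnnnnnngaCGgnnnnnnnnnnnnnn

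The tile at chr19:8845701-8845800 had 75.5, 97.4 and 75.7% in Type5b, then 0, 70 and 42.9% in Type6 and 100, 100 and 93.5% in Type7. At chr5:122581901-122582000 the Type5b libraries had 89.8, 51.6 and 91.0% and the Type6 libraries 5.65, 29.8 and 87%. At chr7:30124001-30124100 Type5b had 97.9, 95.8 and 98.6% and the 2 Type6 libraries that measured it 44.9 and 40.1%. The spread among Type6 libraries was wide in the first pair of tiles and narrow in the last. Type6 was called above Type4 in the tiles on chromosome 5 (adjusted p 0.0101) and chromosome 7 (0.0295) but not in the one on chromosome 19 (0.061). Type6 minus Type4 of the chromosome 5 tile was 38.05 points, and 14.96 points with no call without Type6 replicate 3. Its call was also lost in the fit on the 2 stages (adjusted p 0.10) and with edgeR (0.335). The chromosome 7 tile lost its call in both (0.0518 and 0.431), with limma (0.117), and without Type4 replicate 4 (0.0542), Type4 replicate 6 (0.0707) or the 9 libraries with an X measure above 0 (0.0812). The chromosome 19 tile gained a call without Type6 replicate 1 (0.00953), Type4 replicate 5 (0.0445) or those 9 libraries (0.0447), with at most 10 reads per site (0.0471) and with unweighted reads (0.00474).

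The 1 burst tile in which Type6 was not above Type4, named after its values were seen, was chr6:52241401-52241500. It read 0% in both Type6 libraries that measured it, from 157 and 58 reads, and 100% in both Type7 libraries. Its Type5b libraries had 100 and 77.8%, from 42 and 36 reads. Its Type4 libraries had 0.905, 21.7, 14.9 and 0%.

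Levels of the burst tiles within a library were spread in some libraries and mostly alike in others. In the 2 lower Type4 libraries, replicates 4 and 6, 74.5 and 75.5% of the measured burst tiles were at 10% or less and 1.46 and 0.739% at 80% or more. In replicates 1, 2 and 5, 24.2, 22.9 and 30.1% were at 10% or less and 55.8, 38.3 and 48.9% lay between 10 and 50%. Type4 replicate 2 had 13.5% of its tiles at 80% or more, against 0.739 to 3.89% in the other 4. In Type5b 62.1 to 80.3% of tiles were at 80% or more and 17.6 to 33.5% between 50 and 80%. In Type6 82.2 to 90.2% were at 80% or more, and in Type7 97.1 to 97.6%.

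**Figure D3:**
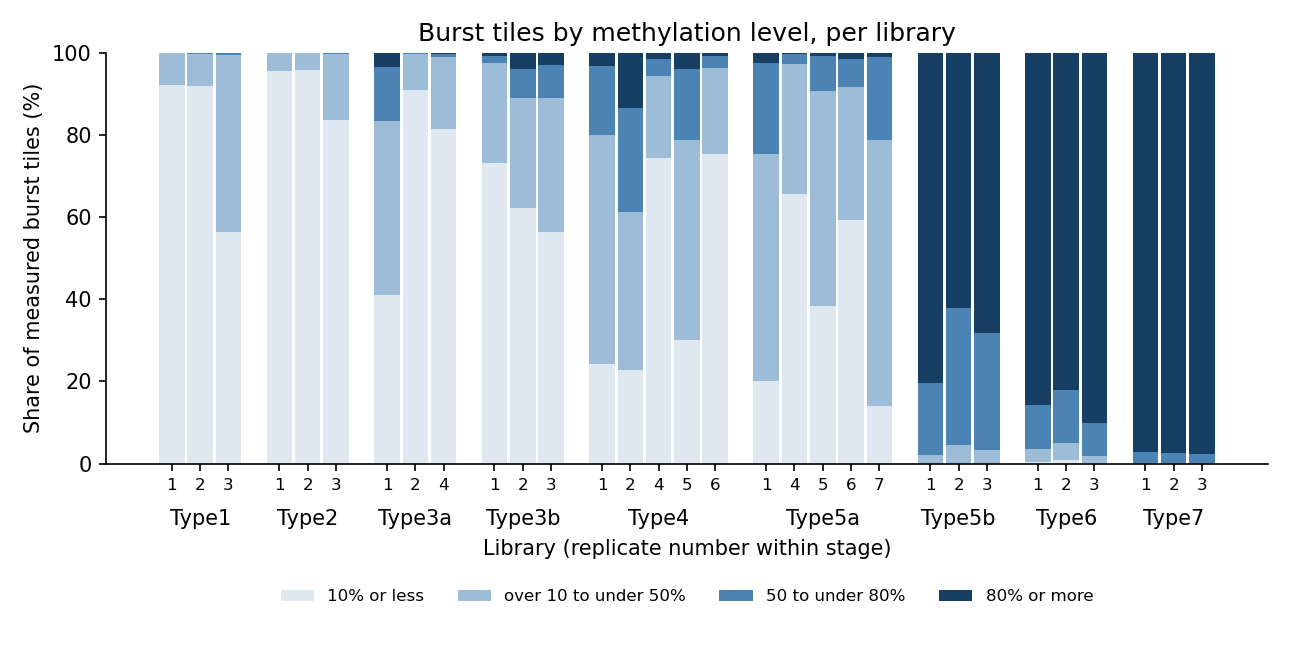
Share of the measured burst tiles (y axis, percent) at 10% or less, over 10 to under 50%, 50 to under 80%, and 80% or more, in each library (x axis, replicate number within stage). Tiles at 80% or more make up 62.1 to 80.3% in Type5b and 82.2 to 90.2% in Type6, while Type4 and Type5a libraries differ among themselves.

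Burst tiles that were high in a Type4 library were largely not those high in another Type4 library. Over burst tiles, Spearman's rho between the levels of 2 Type4 libraries had a median of 0.10 (0.06 to 0.26 over 10 pairs). Between 2 Type5a libraries it had a median of 0.06 (−0.003 to 0.21 over 10 pairs), and between 2 Type5b libraries 0.03 (−0.03 to 0.05 over 3 pairs). Between 2 Type6 libraries it was 0.20 to 0.27. These correlations are across 836 to 1701 tiles that share libraries and depth, and the choice narrows the range of Type5a and Type5b, so they are given without a test.

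The 2 DNA strands of a site often differed in secondary follicles. Among burst-tile sites with at least 5 reads on each strand, the share whose strands were at least 50 percentage points apart was 0.592 to 3.09% in Type2 and 10.2 to 29.8% in Type4. It was 16.1 to 28.8% in Type5a, 17.5 to 21.2% in Type5b, 7.89 to 11.1% in Type6 and 2.9 to 4.93% in Type7. Every library of Type4, Type5a and Type5b except Type4 replicate 6 thus stood above every Type6 library. Outside the secondary follicles the highest share was 26.7%, in Type3a replicate 1, with 2.34 and 6.97% in replicates 2 and 4. The 3 Type3b libraries had 6.42, 16.7 and 16.7%, and Type1 libraries 3.03 to 10.2%. A site at a middle level can differ more between strands by sampling than one near 0 or 100%, and the median was 11 to 44 reads per strand in the secondary libraries. The part of sampling in this share was not tested.

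Sites differed by their neighbouring base. Outside CCGG, burst-tile sites with C after the CG were more methylated than those with A after it in 13 of 13 secondary libraries, by 1.09 to 2.80 points in Type4, 1.83 to 4.90 in Type5a and 3.72 to 5.60 in Type5b. With G before the CG against T before it, the difference was 2.52 to 5.57 points in Type5b and 0.982 to 4.52 in Type5a, above 0 in 3 of 3 and 5 of 5 libraries, but −2.63 to 0.774 in Type4. By Type6 the first difference was −0.43 to 1.91 points and the second 0.0611 to 0.779. In tiles with the same start and end that were not burst tiles, the first difference in Type5b was 3.50 to 3.97 points and the second 1.43 to 3.17. Both were thus also seen outside the burst tiles, and neither was tested as particular to them. Sites inside CCGG were above the other burst-tile sites in 24 of 31 libraries, among them all of Type1 and Type2 (6.79 to 18% against 0.906 to 10.8%), and in 0 of 3 Type5b libraries. In the tiles that were not burst tiles, CCGG sites were above the others in every library from Type1 to Type5a and in 2 of 3 Type5b libraries.

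Within the range the rule allows, CpG density moved levels little. In the third of burst tiles with most sites around them (over 13 within 500 bp) Type6 differed by −2.43 points ± 0.826 (n = 3) from the third with fewest (up to 8), and was lower in 3 of 3 libraries. The same difference was largest in Type3b, at −2.99 points ± 2.22 (n = 3), below 0 in 3 of 3 libraries. It was −1.59 points ± 1.38 (n = 5) in Type4, below 0 in 5 of 5 libraries, and −0.391 points ± 0.653 (n = 3) in Type5b, below 0 in 2 of 3.

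Most burst tiles were alone. Of the 1943, 1248 had no other burst tile within 5 kb, and 695 lay in 309 runs of at least 2. The longest run by tiles, chr8:126109401-126140100, held 18 burst tiles among 41 tiles measured in the 5 stages. In 10 of its tile pairs the starts were 3400 bp apart, so repeated sequence there cannot be told apart from separate tiles. This run had 25.3% ± 11 (n = 5) in Type4, 76.1% ± 5.12 in Type5b and 87.0% ± 3.02 in Type6 (n = 3 each), and 18 of 18 tiles were called between Type4 and Type6. In the run chr8:124074401-124082700, all 6 measured tiles were burst tiles, with 28.1% ± 31.8 in Type4 and 98.7% ± 2.19 in Type6, and 4 of 6 were called. In the run chr15:76005201-76011100, 6 of 8 measured tiles were burst tiles, with 35.6% ± 27.2 in Type4 and 92.0% ± 13.3 in Type6.

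Tiles near a burst tile were also methylated by Type6, and the levels fell with distance. A tile that met the rule is counted as a burst tile and not as a neighbour, which by itself lowers Type5b in the neighbours. In the 148 CpG-poor tiles up to 100 bp away, Type5b had 73.2% ± 7.34 and Type6 90.4% ± 0.0845 (n = 3 each). These tiles can share fragments with the burst tile. At over 300 and up to 1000 bp (35 tiles) Type5b had 61.0% ± 6.63 and Type6 81.4% ± 6.60. At over 1000 and up to 3000 bp (127 tiles) the levels were 32.9% ± 5.24 and 45.8% ± 2.9, and Type7 was 49.8% ± 0.66. At over 10000 and up to 30000 bp (1052 tiles) Type7 was 25.6% ± 1.07, beside the 24.8% ± 0.342 of tiles over 100000 and up to 300000 bp away. Type4 was 25.6% ± 15 up to 100 bp away, 9.04% ± 5.13 at over 3000 and up to 10000 bp, and 17.4% ± 5.71 at over 100000 and up to 300000 bp (n = 5 each), so its levels fell and rose again with distance.

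**Figure D4:**
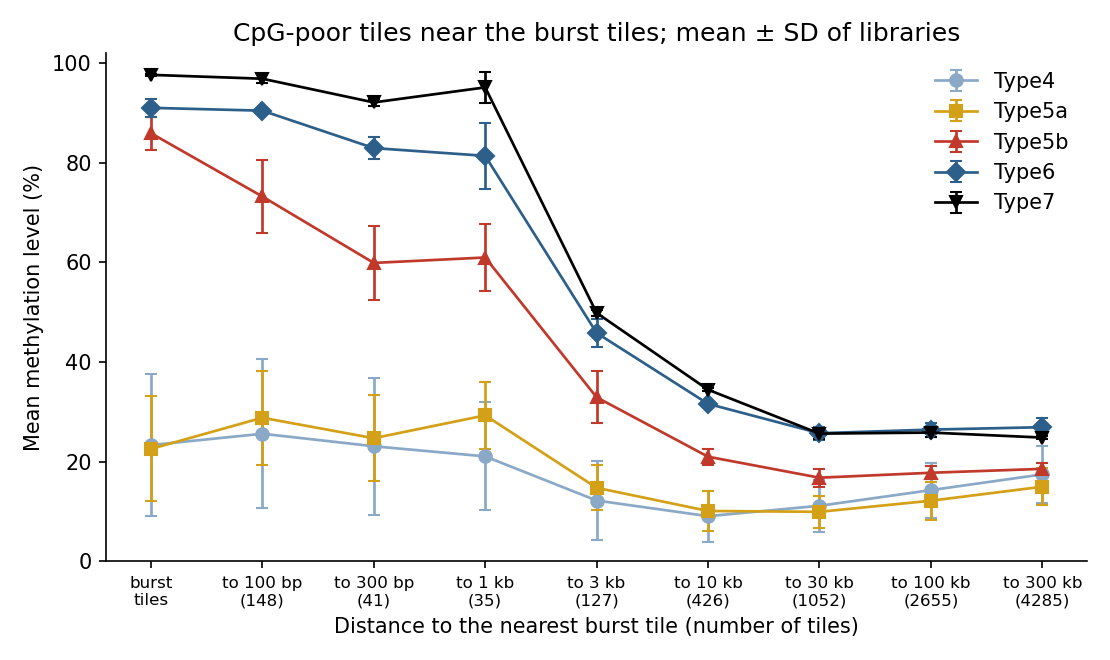
Mean methylation level (y axis, percent, mean ± SD of libraries) of CpG-poor tiles by distance to the nearest burst tile (x axis, upper limit of each class with the number of tiles), in Type4, Type5a, Type5b, Type6 and Type7. The first class is the 1407 burst tiles that every stage measured in 2 or more libraries. Levels in Type6 and Type7 fall from over 80% up to 1000 bp to under 50% beyond it.

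There were 3 other groups with the same start and end: 762 earlier tiles, at least 40% in Type5a, 1078 partial tiles, at 40 to 70% in Type5b, and 893 late tiles, under 40% in Type5b. In the stages that sorted none of them, earlier tiles had 29.5% ± 16.8 in Type4 and 94.5% ± 0.919 in Type6, and partial tiles had 19.1% ± 11.3 and 83.1% ± 1.66. Late tiles had 14.4% ± 8.54 in Type4 and 64.2% ± 0.48 in Type6. Burst tiles, at 23.3% ± 14.1 and 91.2% ± 2.01, lay between earlier and partial tiles in both stages. In Type4 the ranges of the libraries of the 4 groups overlapped, while in Type6 the libraries of the 4 groups did not overlap. The order follows the sorting, and the groups share libraries, so no test was made. Type6 was called above Type4 in 79.0% of 705 earlier tiles tested, in 75.6% of 1010 partial tiles and in 59.0% of 830 late tiles, beside the 86.3% of burst tiles. Tiles with fewer than 20 sites within 500 bp made up 85.7% of earlier, 83.9% of burst, 76.6% of partial and 69.2% of late tiles.

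**Figure D5:**
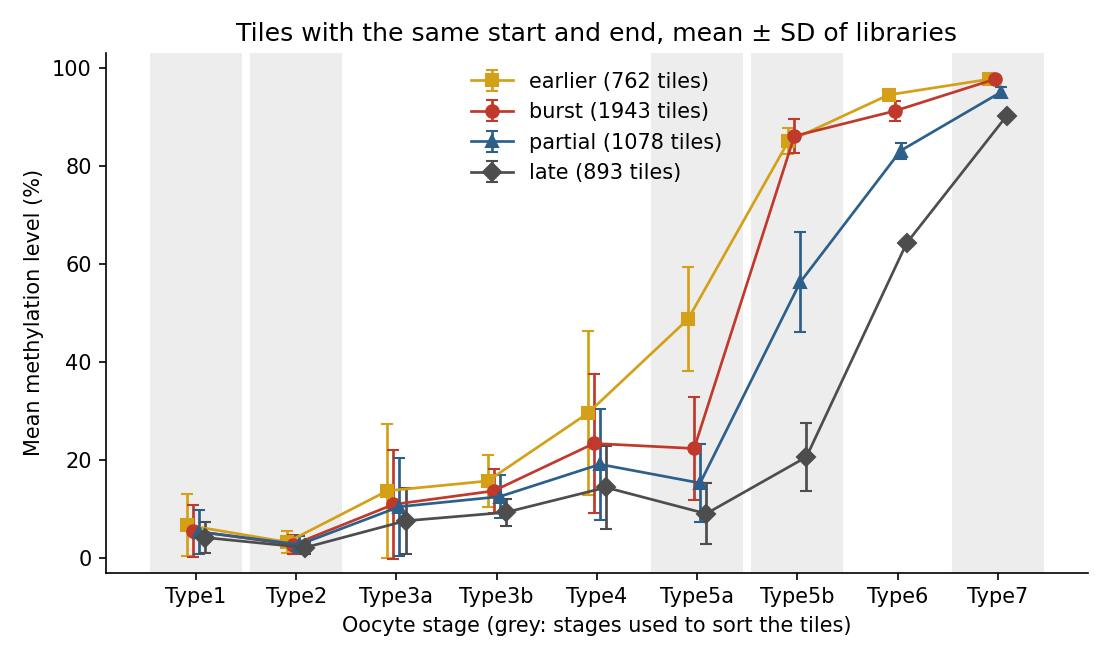
Mean methylation level (y axis, percent, mean ± SD of libraries) by stage (x axis) of the burst tiles and of the 3 other groups of tiles with the same start and end; grey bands mark stages used to sort the tiles. Burst tiles rise from 22.3% in Type5a to 86.1% in Type5b, which the rule fixes, and lie at 91.2% in Type6.

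The bounds of the rule cut through a continuum. In Type5b 253 burst tiles lay between 70 and 75%, and 216 tiles that met every other condition lay between 65 and 70%. In Type5a 286 burst tiles lay between 35 and 40%, and 207 tiles between 40 and 45% met every other condition. The 3 burst tiles nearest the Type5b threshold, chr9:21637701-21637800, chr11:82711101-82711200 and chr9:65125701-65125800, each had 2 Type5b libraries, at 100 and 40%, 100 and 40%, and 56.9 and 83.2%. The 3 nearest outside, chr2:164788901-164789000, chr8:126063701-126063800 and chr5:125320001-125320100, had 69.0 and 70.9%, then 82.7, 47.5 and 79.6%, then 100 and 39.8%.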

How the data were processed

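Oocyte DNA methylation was measured in 31 libraries. MspI fragments of lysed oocytes were given premethylated adaptors, converted with bisulfite and amplified by PCR, and a gel selected 200 to 700 bp, per the labels' protocols. The submitters' processing notes name BSMAP 2.89 and mm9. The methylation caller is not given in the sources used here. The deposited files give read counts per CpG site (all and methylated, also by strand), the authors' methylated fraction, and a 5-base context. No listed site has fewer than 3 reads. PCR copies count as separate reads.

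Tile levels were computed from the counts, not from the fraction. The members, the lists and the tests were chosen with earlier results of these data known. Replicates are separate libraries by their titles; nothing says they came from separate animals. The spread behind each p-value is that between libraries and may be technical. The contrasts used a quasi-binomial model of stage over 31 libraries, with the dispersion moderated as in limma's squeezeVar, floored at the binomial variance, an F test and Benjamini-Hochberg adjustment over all tiles in at least 2 libraries of both stages. After a test on simulated data, the reads of a library were scaled for their correlation within it (0.0754 over all tiles), and stages at 0 or 100% in every library gave no residual degrees of freedom. limma took log2 ratios of methylated to unmethylated counts computed from the deposited counts with 1 added to each, and edgeR the 2 counts. Named tiles are the 5 with the largest Type6 minus Type4 difference among called tiles without overlap and in all 31 libraries, the 3 highest in Type4 and the 3 lowest in Type6 among tiles in at least 28 libraries, the 3 on either side of the Type5b threshold, and the 3 runs with most tiles. CpG density counts only sites listed in a library. The edgeR 4.0.16 and limma 3.58.1 models ran in R 4.3.3, all else, the quasi-binomial model included, in Python 3.11.15 with pandas 2.3.3, numpy 2.4.6, matplotlib 3.10.9 and scipy 1.17.1.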

Additional observations from a re-analysis of the deposited data

Results flagged for a closer look

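In Type4 replicate 2, 13.5% of the measured burst tiles were at 80% or more, and this library stood apart from the other 4 of its stage, which had 0.739 to 3.89%. Its gap to the next library, set against the range of the stage, passed Dixon's 95% limit. It also had the highest X measure (10.6 points) and the next to lowest total of reads (14592776) in Type4, and their part in the value was not tested. Of 12 groups and measures examined 1 stood apart in this way, and chance gives about 1 in 20.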

How the results depend on the processing

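The number of burst tiles followed how many tiles a setting measures: 1210 at 10 reads per site, 3690 with at least 2 sites, 533 with at least 5 sites, 294 where every library of the 5 stages was required, and 1085 without the 9 libraries with an X measure above 0. In the same settings except the one that required every library, for which calls were not counted, 963, 2937, 438 and 604 tiles were called higher in Type6 than in Type4, or 87.9, 85.0, 88.0 and 84.4% of those tested, against 11.37, 14.19, 7.88 and 13.65% of all tiles. Without those 9 libraries the tiles had 8.73% in Type4 and 93.5% in Type6. On the 1817 tiles tested, a fit on the 2 stages called 1026 (56.5%), edgeR 117 (6.44%) and limma 1525 (83.9%). Unweighted reads, an alternative chosen after seeing the data, called 1631 (89.8%), beside 13.77% of all tiles. Between same-numbered libraries of the stages compared (replicates 1 and 2), deviations from the stage levels had r from −0.161 to 0.0929. This gave no sign that numbers pair the libraries, but so few pairs cannot exclude it. With the number as a replicate block, 743 burst tiles were called between Type4 and Type6 (40.9% of those tested), beside 4.31% of all tiles. With the block 27 were higher in Type4 than in Type3b (1.62% of those tested), beside 0.225% of all tiles. In the same fit 1 was lower in Type3b than in Type3a (0.0679% of those tested), beside 0.0213% of all tiles. The tiles at chr5:122581901-122582000 and chr7:30124001-30124100 were not called with the replicate block (adjusted p 0.204 and 0.142).

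With each library left out in turn, the number ran from 1219 to 2007, with 1219, 1273, 1263 and 1226 without Type1 replicate 1, Type1 replicate 3, Type5b replicate 1 and Type7 replicate 1. The tiles called between Type4 and Type6 ran from 1016 to 1623, with 1033, 1038 and 1016 without Type1 replicate 1, Type5b replicate 1 and Type7 replicate 1, where fewer tiles were tested, and were 75.8 to 88.4% of those tested. The level in Type3a ran from 4.49% (without Type3a replicate 1) to 14.7%. The tile at chr2:91785401-91785500 ran from −1.94 points (without Type4 replicate 5) to 16.2. Type5b left with 2 libraries gives no held-out level. All other counts of calls stayed at 0 and all other levels moved by less than 1 SD.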
